A study of Mus musculus with 6 samples.

Results

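The circadian clock genes described here are the 10 transcripts *Arntl* (Bmal1), *Clock*, *Per1*, *Per2*, *Per3*, *Cry1*, *Cry2*, *Nr1d1*, *Nr1d2* and *Dbp*, taken by symbol from the 55401 genes counted in each library, and all 10 were among the 16807 genes that passed the filter on low counts. Bulk RNA was sequenced from subcutaneous white adipose tissue (scWAT) of 8-week-old male mice kept at room temperature. The 3 control libraries (YT-FF, WT in the labels) came from mice that carry the floxed alleles Yapfl/fl and Tazfl/fl without a Cre, by the study's methods. The other 3 (YT-AKO) came from mice that carry the same floxed alleles and AdipoqCre. AdipoqCre drives constitutive recombination in mature adipocytes, while the other cells of the tissue keep both genes. The comparison asks whether the clock transcripts differed between the genotypes. It also asks whether they differed in the way that libraries collected at different hours would, and the hour of collection is not given in the sources used here.

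The mammalian clock is a feedback loop that almost every cell runs, fat cells included. BMAL1 (from *Arntl*) and CLOCK pair on E-box sequences and switch on the *Per* and *Cry* genes, whose proteins return to the nucleus and block the pair. The same pair switches on *Nr1d1* and *Nr1d2*, which encode REV-ERBα and REV-ERBβ, nuclear receptors that bind RORE sequences and repress *Arntl*, and on *Dbp*, a factor that binds D-box sequences, where NFIL3 competes with it as a repressor. As background, in mouse peripheral tissues *Nr1d1*, *Dbp* and *Nr1d2* peak in the light phase, *Per3*, *Per1* and *Per2* follow, and *Arntl* peaks at the opposite time of day, so that a shift in hour moves *Arntl* against *Dbp*. *Per1* and *Per2* also answer quickly to glucocorticoids, cAMP and temperature.

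Letters of some of these motifs occur in the stretches around the transcription starts. The RefSeq windows used here (GRCm38.p6, 250 bases before to 50 after each start) covered 9 of the 10 genes, and *Per2* had no window. Both strands were searched for the E-box CACGTG, its variant CACGTT (E-prime box), the D-box TTATGNAA, the RORE core TAGGTNA and the cAMP response element TGACGTCA. These letters stood in 7.15%, 4.68%, 3.38%, 8.29% and 1.79% of all 32851 windows, in that order. The sites below are the matches in the members the results turn on, and in *Nfil3*, written 5′ to 3′ on the gene's strand with the motif in capitals. A match is a description of the letters and not a shown binding site.
Arntl, RORE core, chr7:113207494-113207523 (+): tggtcggaaagTAGGTTAgtggtgcgacat
Arntl, RORE core, chr7:113207530-113207559 (+): aaggcagaaagTAGGTCAgggacggaggtg
Nfil3, RORE core read on the other strand, chr13:52981033-52981062 (-): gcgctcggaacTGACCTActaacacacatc
Per3, D-box, chr4:151044805-151044834 (-): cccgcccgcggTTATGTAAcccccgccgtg
Per3, D-box, chr4:151044852-151044881 (-): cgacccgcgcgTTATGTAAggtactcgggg
Per1, D-box, chr11:69098914-69098943 (+): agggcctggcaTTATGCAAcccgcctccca
Per1, E-box, chr11:69098771-69098800 (+): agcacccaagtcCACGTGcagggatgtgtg
Cry1, E-box, chr10:85185097-85185126 (-): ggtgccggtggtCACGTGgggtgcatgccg
Nr1d1, E-prime box read on the other strand, chr11:98775388-98775417 (-): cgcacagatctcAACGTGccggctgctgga

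Both *Arntl* sites and the *Nfil3* site lie in annotated exon near the gene's start, the *Per1* sites in an intron of its longest model before a downstream start, and the *Per3*, *Cry1* and *Nr1d1* sites upstream of the gene. *Arntl* was the only member with a RORE core in its window and held it at 2 places, and *Per3* held 2 D-boxes with the same 8 letters. *Cry1* and *Cry2* also held an E-prime box. No match was found in the windows of *Clock*, *Nr1d2* and *Dbp*, and the cAMP response element was found in 0 members, which says only that these letters are not in these 300 bases.

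Total counts ran from 17740987 to 21838493 per library. *Adipoq*, *Plin1* and the other adipocyte markers were abundant in all 6 libraries. Of the targeted genes, *Yap1* was lower in the libraries labelled YT-AKO (log2 fold change -0.98, edgeR adjusted p = 0.0179), whereas *Wwtr1* (TAZ) was higher (0.89, adjusted p = 0.0220), which goes against its label. At the protein level, the study reported by immunoblot that YAP and TAZ were clearly reduced in YT-AKO scWAT. The counts sum all exons and do not show the loss of single ones, so every direction below is that of the libraries labelled YT-AKO against those labelled YT-FF. Neither passed without YT-FF 1 or without YT-FF 2, *Wwtr1* did not pass with library totals (0.59, adjusted p = 0.0798), and *Yap1* was -0.58 with a gene length correction (0.0450). By edgeR (quasi-likelihood, Benjamini-Hochberg over all tested genes), 21.6% of all tested genes passed at an adjusted p under 0.05 (12.6% higher and 9.01% lower), and the median log2 fold change of all tested genes was -0.02. Across genes, fold change fell with exon length (Spearman rho -0.38, a description over 16807 genes that share the same libraries). Exon lengths of the clock genes ran from 2993 to 13727 bp, with a median of 5744 bp against 3888 bp over all tested genes.

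Of the 10 clock genes, 2 fell (*Per3* and *Nr1d2*) and 0 rose, with 8 of the 10 fold changes below 0 and a median of -0.29 on the log2 scale. The share that passed, 2 of 10, is close to the 21.6% of all tested genes. At an unadjusted p under 0.05, 3 were lower and 0 higher in edgeR, against 40.8% of all tested genes in either direction. DESeq2, which called 32.3% of all tested genes, and limma-voom, which called 21.6%, each called *Per3* and *Nr1d2* lower and 0 higher. At each of these cuts the clock genes lay at or below the share of all genes called in either direction. All clock gene calls were lower. In that direction alone, 9.01% of all tested genes passed in edgeR, and 2 of 10 lay above it. Of the 16807 genes, DESeq2 called 2392 lower and limma-voom 1647, and 3124 were lower in edgeR at an unadjusted p under 0.05. No set test was run on the clock genes. The study's stricter rule was an adjusted p under 0.01 with a log2 fold change beyond 1. Applied to the edgeR fit, it passed 0 of the 10, as against 0.125% of all tested genes. The study itself used DESeq2, in which *Per3* met both cuts (log2 fold change -1.14, adjusted p = 0.00676). The share of all tested genes that met them in DESeq2 is not given here. The CPM (each gene's share of the library's counts, scaled to 1e6 and by TMM factors) of the groups did not overlap in 4 members, *Arntl* above and *Clock*, *Per3* and *Nr1d2* below, against 51.5% of all tested genes, made up of 25.7% with YT-AKO above and 25.8% with YT-AKO below. In bulk tissue, fewer cells of a type and less RNA per cell cannot be told apart.

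**Figure D1:**
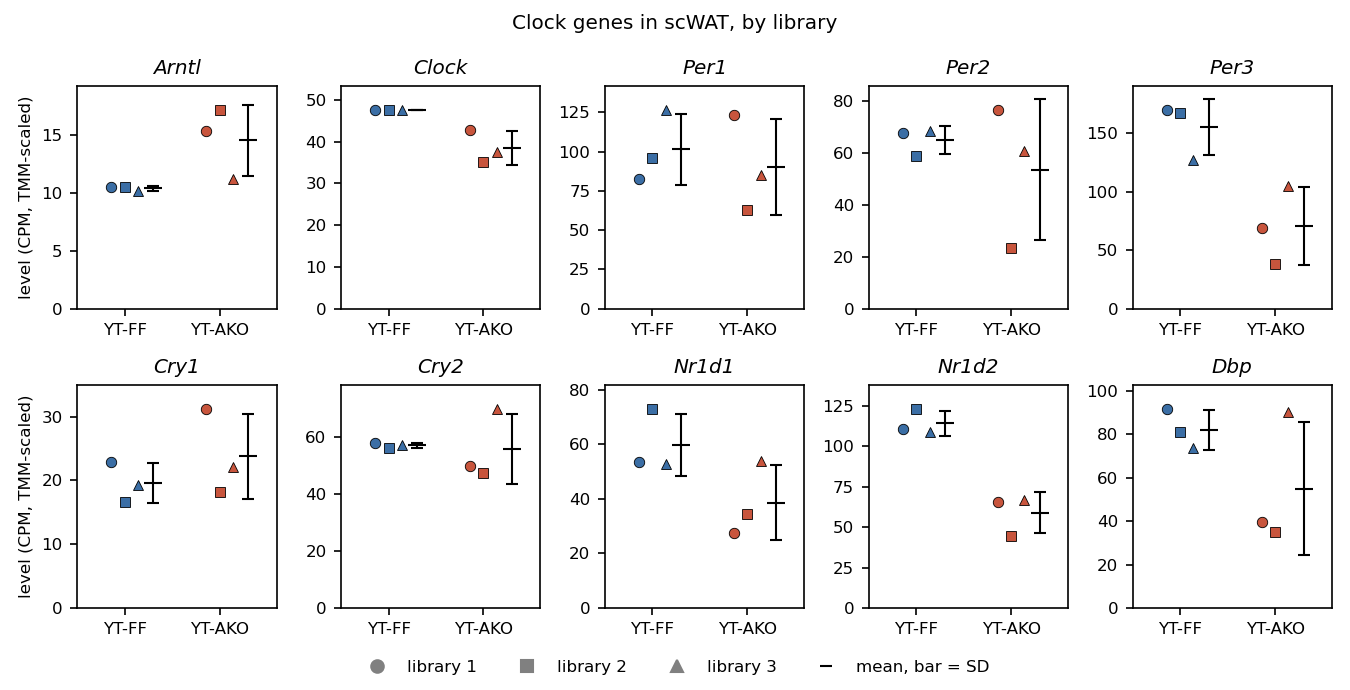
Level of each of the 10 clock genes in every library, in TMM-scaled CPM on a linear axis from 0. Points are the 3 YT-FF (blue) and 3 YT-AKO (red) libraries with their replicate number as shape, and the bar beside them is the mean ± SD. *Per3* and *Nr1d2* separate the groups downwards, while *Per2* at 23.4 CPM in YT-AKO 2 and *Dbp* at 90.4 CPM in YT-AKO 3 show single libraries apart from their group.

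Of the activators, *Arntl* stood at 10.6, 10.5 and 10.2 CPM in YT-FF 1 to 3 and at 15.3, 17.2 and 11.2 CPM in YT-AKO 1 to 3. The 3 control values almost coincided and all 3 YT-AKO values lay above them, YT-AKO 3 only just. The fitted log2 fold change was 0.49 (95% confidence interval -0.01 to 0.98), and it did not pass (edgeR adjusted p = 0.126). It was 0.83 with a correction for gene length (adjusted p = 0.0579) and 0.14 with library totals in place of TMM factors (0.622). *Clock*, the partner of BMAL1, stood at 47.6, 47.6 and 47.5 CPM in the controls and at 42.8, 35.0 and 37.6 CPM in YT-AKO. Its groups did not overlap either, in the opposite direction, with a log2 fold change of -0.31 (95% confidence interval -0.64 to 0.03, adjusted p = 0.150). Its 13727 bp of exon make *Clock* the longest member, and with the length correction its fold change turned to 0.24. *Arntl* shares 0.439% of its exon bases with another gene and *Clock* shares none.

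*Per3*, a *Per* family member with a strong rhythm in peripheral tissues, fell, and its fold change was the lowest of the 10 in the uncorrected fit. It stood at 170, 168 and 127 CPM in the controls against 69.3, 38.4 and 104 CPM in YT-AKO, so every YT-AKO library lay below every control, with YT-AKO 2 lowest and YT-AKO 3 nearest to the controls. The log2 fold change was -1.13 (SE 0.339, 95% confidence interval -1.92 to -0.35), and edgeR's adjusted p of 0.0496 lay just under the threshold. It did not pass when YT-FF 1, YT-FF 2, YT-FF 3 or YT-AKO 1 was left out (adjusted p = 0.160, 0.159, 0.0860 and 0.0903) and with the length correction (log2 fold change -0.75, adjusted p = 0.0961), where that of *Nr1d2* was lower (-0.80, adjusted p = 0.0247). DESeq2 gave an adjusted p of 0.00676.

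*Per1* and *Per2*, the members of the family that respond acutely to hormones and light, did not pass. *Per1* stood at 82.5, 95.8 and 127 CPM in the controls and at 123, 62.8 and 85.3 CPM in YT-AKO, and the groups overlapped (log2 fold change -0.17, 95% confidence interval -0.80 to 0.47, adjusted p = 0.668). *Per2* stood at 67.6, 58.7 and 68.3 CPM and at 76.5, 23.4 and 60.5 CPM, where YT-AKO 1 was the highest of the 6 libraries and YT-AKO 2 the lowest (log2 fold change -0.28, 95% confidence interval -1.15 to 0.59, adjusted p = 0.600). Without YT-AKO 2 the fold changes were 0.035 and 0.076. These intervals leave room for a change of either sign, that of *Per2* contains the -1.13 of *Per3*, and no difference between the family members was tested.

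The cryptochromes, which bind and block the BMAL1 and CLOCK pair, did not pass either. *Cry1*, which peaks late in the cycle, stood at 22.9, 16.6 and 19.2 CPM in the controls and at 31.2, 18.1 and 22.04 CPM in YT-AKO, with YT-AKO 1 highest (log2 fold change 0.28, 95% confidence interval -0.28 to 0.84, adjusted p = 0.406). *Cry2* stood at 57.9, 56.0 and 57.4 CPM and at 49.8, 47.4 and 69.9 CPM, so the YT-AKO libraries lay on both sides of the narrow control range (log2 fold change -0.04, 95% confidence interval -0.46 to 0.39, adjusted p = 0.895). Single libraries moved *Cry1* from 0.044 (without YT-AKO 1) to 0.44 (without YT-AKO 2). The sign of *Cry1* turned with library totals in place of TMM factors (-0.026) and that of *Cry2* with the length correction (0.20).

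*Nr1d2*, encoding REV-ERBβ, was also lower, at 111, 123 and 109 CPM in the controls against 65.5, 44.3 and 67.1 CPM in YT-AKO. The groups lay far apart, and the log2 fold change was -0.95 (SE 0.194, 95% confidence interval -1.40 to -0.50, edgeR adjusted p = 0.0218). It still passed when any YT-AKO library was left out (adjusted p = 0.0287, 0.00390 and 0.0383) and did not pass when YT-FF 1, YT-FF 2 or YT-FF 3 was left out (0.112, 0.118 and 0.0538). Without YT-FF 1, edgeR called 0 of all tested genes in either direction, although 2612 were higher and 2053 lower at an unadjusted p under 0.05. *Nr1d1*, encoding REV-ERBα, stood at 53.7, 73.0 and 52.9 CPM in the controls and at 27.6, 34.4 and 54.0 CPM in YT-AKO, where YT-AKO 3 lay within the control range. Its log2 fold change was -0.63 (95% confidence interval -1.25 to -0.01) and did not pass (adjusted p = 0.118). Without YT-AKO 3 it passed (log2 fold change -0.94, adjusted p = 0.0428), while it was -0.43 without YT-AKO 1 (0.247) and -0.47 without YT-FF 2 (0.338).

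*Dbp*, the output factor with the widest daily swing of these genes in many tissues, stood at 91.7, 81.0 and 73.5 CPM in the controls and at 39.6, 35.0 and 90.4 CPM in YT-AKO. YT-AKO 1 and YT-AKO 2 lay below every control, while YT-AKO 3 lay among them. The log2 fold change was -0.58 (95% confidence interval -1.39 to 0.23, adjusted p = 0.247). The YT-AKO libraries pulled it both ways, since it was -1.13 and passed without YT-AKO 3 (adjusted p = 0.0374), -0.34 without YT-AKO 2 (0.413) and -0.38 without YT-AKO 1 (0.465). *Dbp* shares 18.01% of its exon bases with *Sphk2* on the other strand and *Nr1d1* shares 8.55% with *Thra*, and fragments that fell on 2 genes were left out of these unstranded counts.

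**Figure D2:**
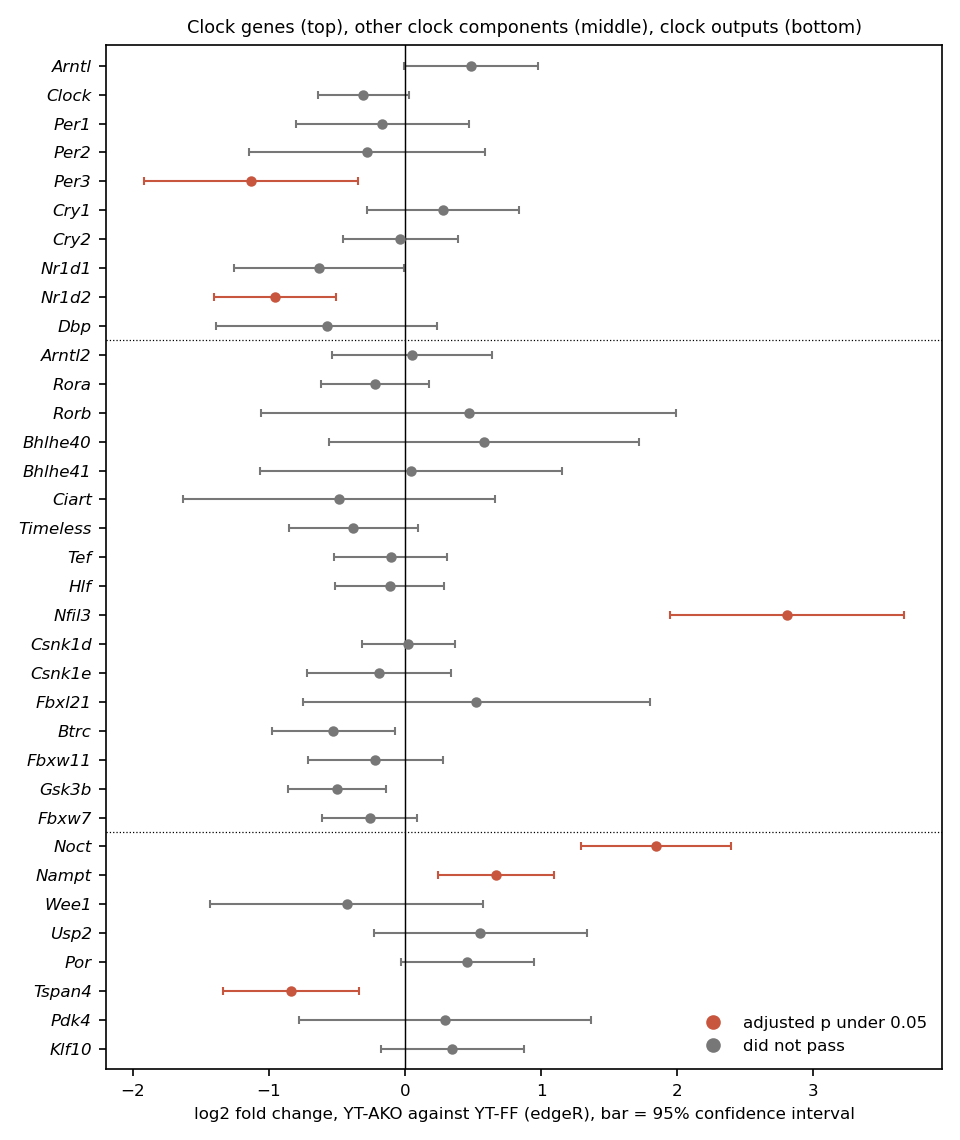
Log2 fold change of YT-AKO against YT-FF from edgeR (horizontal axis) for the 10 clock genes, other clock components and 8 clock outputs, with 95% confidence intervals as bars. Red points passed at an adjusted p under 0.05. *Per3* (-1.13) and *Nr1d2* (-0.95) lie to the left of 0, and *Nfil3* (2.81) stands to the right of every other gene drawn.

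Levels can be compared between genes only per length. In TPM (counts per summed exon length, scaled to 1e6 a library), the order in the controls was *Dbp* at 104 ± 14.7 (SD, n = 3), *Nr1d2* at 80.4 ± 8.70, *Nr1d1* at 74.3 ± 17.0, *Per1* at 68.2 ± 12.5, *Per3* at 61.6 ± 11.9, *Per2* at 42.0 ± 2.41, *Cry2* at 34.3 ± 1.35, *Cry1* at 22.3 ± 3.62, *Clock* at 13.2 ± 0.619 and *Arntl* at 5.27 ± 0.332. The libraries of the first 5 genes overlapped from each to the next, and from *Per3* down each gene lay clear of its neighbour. *Arntl*, lowest of the 10, thus lay at the far end of the order from *Dbp*. In TPM the mean of all 10 was lower in YT-AKO and the groups of 7 (*Clock*, *Per2*, *Per3*, *Cry2*, *Nr1d1*, *Nr1d2* and *Dbp*) did not overlap. That scale shifts most genes downwards, since 79.3% of all tested genes had a lower mean TPM in YT-AKO and 54.5% did not overlap and were lower.

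The YT-AKO libraries differed more among themselves than the controls did. The range of log2 CPM within a group was larger in YT-AKO for all 10 clock genes, with a median of 0.88 against 0.27 in the controls. The same held for 75.6% of all tested genes, whose median ranges were 0.71 and 0.37. The smallest member range in the controls was that of *Clock*, 0.0033, and the largest in YT-AKO that of *Per2*, 1.71.

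Set out by the textbook order of their peaks, the libraries of YT-AKO showed 3 different profiles. In YT-AKO 1, *Nr1d1* and *Dbp* lay 0.77 and 0.69 below their mean over the 6 libraries on the log2 scale, while *Per1*, *Per2* and *Cry1* lay 0.40, 0.46 and 0.55 above theirs. In YT-AKO 2, *Per2* lay 1.25 below its mean, *Per3* 1.38 below and *Ciart*, a repressor of the BMAL1 and CLOCK pair, 1.72 below, while *Arntl* lay 0.49 above. That library also had the lowest TMM factor, 0.777. Without it, the Spearman rho of fold change with exon length over all tested genes was -0.28 in place of -0.38. In YT-AKO 3, *Dbp* and *Nr1d1* lay 0.50 and 0.20 above their means, near the controls. *Nr1d2* alone of these light-phase genes was below its mean in all 3, by 0.31, 0.87 and 0.28.

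**Figure D3:**
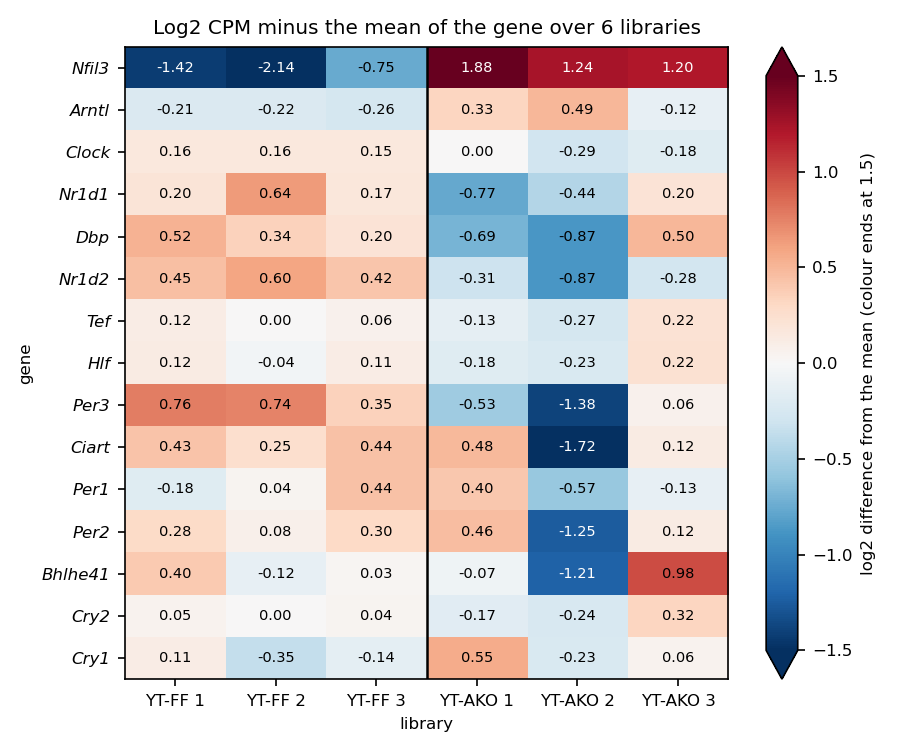
Log2 CPM of 15 clock genes minus the mean of the gene over the 6 libraries, one column per library and genes in the approximate textbook order of their peaks. Red is above and blue below the mean, and the number in each cell is the value. For every gene drawn except *Nfil3*, values range less widely over the 3 YT-FF columns than over YT-AKO 1, 2 and 3, where *Per2* is at 0.46, -1.25 and 0.12. *Nfil3* ranges over 1.39 in YT-FF and 0.67 in YT-AKO.

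The difference of log2 counts between *Arntl* and *Dbp*, which peak at opposite times, needs no scaling for library size. It was -3.12, -2.95 and -2.85 in the controls and -1.37, -1.02 and -3.01 in YT-AKO, with means of -2.97 ± 0.135 and -1.80 ± 1.06 (SD, n = 3). YT-AKO 1 and YT-AKO 2 thus lay above the controls and YT-AKO 3 among them. The difference between the means was 1.17, and it ran from 0.783 to 1.77 when each library was left out in turn. Exon length, 7523 bp in *Arntl* and 2993 bp in *Dbp*, was not corrected for in this difference or in those that follow. With the length correction, the edgeR log2 fold change of *Arntl* was 0.83 in place of 0.49, and that of *Dbp* -0.69 in place of -0.58. A wider difference, of the mean over *Arntl*, *Clock* and *Npas2* against the mean over *Dbp*, *Nr1d1*, *Nr1d2*, *Per1*, *Per2* and *Per3*, was larger in YT-AKO by 0.989 and its groups did not overlap, the nearest libraries being YT-FF 1 at -3.70 and YT-AKO 3 at -3.66. It includes *Npas2*, which had only 4 to 15 counts per library. No p is given for these differences, since their genes were chosen with earlier results known.

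Other pairs, chosen after their values were seen, split the YT-AKO libraries in other ways. *Per2* minus *Nr1d1* was 0.33, -0.31 and 0.37 in the controls and 1.47, -0.56 and 0.17 in YT-AKO, so YT-AKO 1 and YT-AKO 2 lay on opposite sides of the controls. *Per1* minus *Dbp* was -0.15, 0.24 and 0.78 in the controls and 1.64, 0.84 and -0.08 in YT-AKO. *Per2* minus *Per3* was -1.33, -1.51 and -0.90 in the controls and 0.14, -0.71 and -0.79 in YT-AKO, with all 3 YT-AKO libraries above. A difference in collection hour between the groups or between single mice was not tested, and with no hour in the sources it cannot be told apart from genotype.

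**Figure D4:**
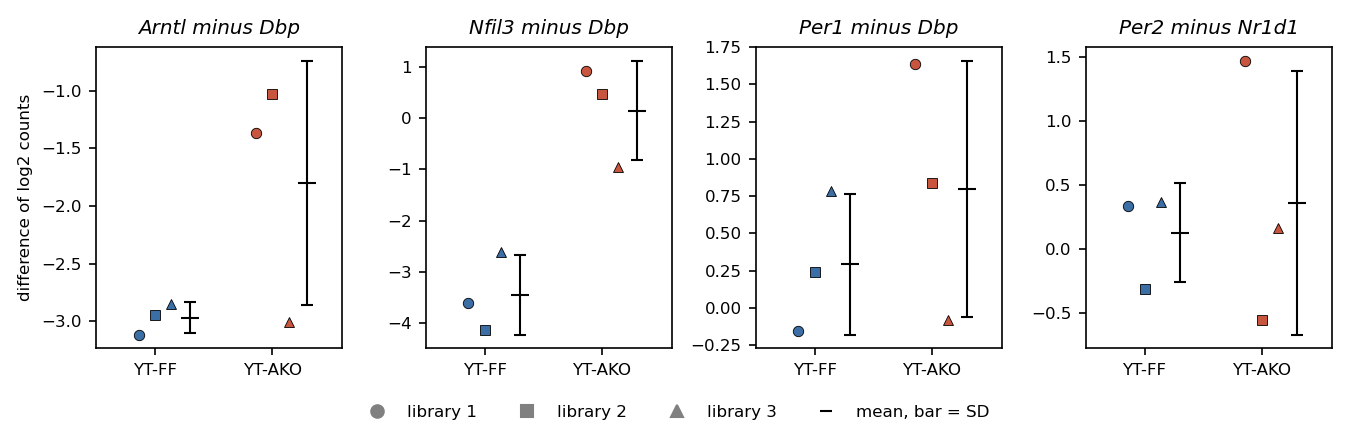
Difference of log2 counts between 2 genes in each library for 4 pairs, with the group mean ± SD beside the points (vertical axes differ and do not start at 0). *Arntl* minus *Dbp* is near -3 in the controls and YT-AKO 3 (-3.01) and higher in YT-AKO 1 (-1.37) and YT-AKO 2 (-1.02). *Nfil3* minus *Dbp*, like the *Per* pairs, was chosen after its values were seen, and it separates the groups in full.

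Of 20 other components of the clock, 19 were tested, 1 rose and 0 fell, with a median log2 fold change of -0.11. That is 5.26% of those tested, below the 21.6% of all tested genes that passed. At an unadjusted p under 0.05 in edgeR, 3 were lower and 1 higher, against 40.8% of all tested genes in either direction. DESeq2 called 1 of the lower ones, *Gsk3b*, while limma-voom called 0. The gene that rose was *Nfil3* (E4BP4), which competes with DBP at D-boxes. It stood at 7.59, 4.61 and 12.1 CPM in the controls and at 74.8, 48.1 and 46.9 CPM in YT-AKO, far apart in every library. Its log2 fold change was 2.81 (SE 0.371, 95% confidence interval 1.95 to 3.67, edgeR adjusted p = 0.0166). Without YT-FF 1 or without YT-FF 2, 0 of these components passed. *Nfil3* minus *Dbp*, in log2 counts, was -3.44 ± 0.775 in the controls and 0.14 ± 0.971 in YT-AKO (SD, n = 3). That pair was chosen after its values were seen and contains the rise of *Nfil3* itself, so it is no separate result. The activators of the D-box that accompany *Dbp*, *Tef* and *Hlf*, both had a log2 fold change of -0.11 (adjusted p = 0.680 and 0.642).

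The remaining components did not pass. *Arntl2*, a paralogue of *Arntl*, had a log2 fold change of 0.05, and *Npas2*, which can stand in for CLOCK, failed the filter with 4 to 15 counts per library. The activators *Rora* and *Rorb*, which bind the same RORE as the REV-ERBs, had log2 fold changes of -0.22 and 0.47. The repressors *Bhlhe40*, *Bhlhe41*, *Ciart* and *Timeless* ran from -0.48 to 0.58. *Bhlhe40* was uneven, at 18.1 CPM in YT-AKO 2 against 58.0 and 92.1 in the other YT-AKO libraries. Kinases and ubiquitin ligase subunits that set the lifetime of the PER and CRY proteins ran from -0.53 (*Btrc*) to 0.52 (*Fbxl21*). *Btrc*, *Gsk3b* and *Fbxw7* were lower with no overlap between the groups in CPM, as were 25.8% of all tested genes. Of the 19 tested components, 6 did not overlap in either direction, against 51.5% of all tested genes.

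Of 8 clock outputs, 2 rose and 1 fell, as against 12.6% higher and 9.01% lower of all tested genes. *Noct*, which encodes the rhythmic phosphatase nocturnin and carries a D-box match in its window, stood at 39.6, 71.2 and 59.5 CPM in the controls and at 231, 188 and 193 CPM in YT-AKO (log2 fold change 1.85, edgeR adjusted p = 0.0166). *Tspan4* fell, with a log2 fold change of -0.84 (adjusted p = 0.0349), and shares 11.2% of its exon bases with *Chid1*. *Nampt*, the rate-limiting enzyme of NAD salvage, rose by 0.67 (adjusted p = 0.0407). Without YT-FF 1 or without YT-FF 2, 0 of the outputs passed in either direction, and without YT-FF 3 or without YT-AKO 3 only *Noct* did. *Wee1*, *Usp2*, *Por*, *Pdk4* and *Klf10* did not pass, and *Wee1* followed *Per2* in being lowest in YT-AKO 2 at 5.78 CPM, against 18.7 to 23.4 CPM in the other libraries.

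Signals that reset *Per1* and other clock genes were read from further lists, each given by its counts. The shares to set beside each count are the 12.6% of all tested genes that rose and the 9.01% that fell. Of 13 glucocorticoid-responsive genes, 3 rose and 0 fell, led by *Cdkn1a* (log2 fold change 2.15) and *Lcn2* (2.11), with a list median of 0.57. Fold changes were above 0 for 9 of the 13 and below 0 for 4, among them *Zbtb16* (-0.85) and *Klf9* (-0.02). *Fkbp5*, a sensitive glucocorticoid target chosen after its values were seen, stood at 125, 107 and 163 CPM in the controls and at 387, 194 and 183 CPM in YT-AKO, and did not pass in edgeR (adjusted p = 0.0661). It passed in DESeq2, in edgeR with the length correction and in edgeR without YT-AKO 2. It did not pass in limma-voom, with the replicate block or with any library other than YT-AKO 2 left out. Of 15 immediate early genes, 2 rose and 1 fell, led by *Atf3* (1.51) and *Egr3* (-1.18), while *Fos* had a log2 fold change of 0.16 and did not pass. Of 9 temperature-responsive genes, 6 rose and 0 fell, each a heat shock gene, led by *Hspb1* (2.71) and *Hspa1b* (2.54). *Hspa1b* was uneven, at 58.0 CPM in YT-AKO 1 against 7.90 and 10.7 CPM in YT-AKO 2 and 3. Of the 9, 7 rose in DESeq2, 4 in limma-voom or with the length correction, 1 with the replicate block, and 0 without YT-FF 1 or without YT-FF 2. The cold-inducible *Cirbp* and *Rbm3* did not pass, at log2 fold changes of -0.04 and -0.42. Without YT-AKO 2, *Cirbp* passed as lower, in a fit that called 30.8% of all tested genes. Of 10 genes that respond to fasting and feeding, 1 rose (*Pnpla2*, 0.79) and 1 fell (*Irs2*, -1.20).

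Markers of other cell types moved with some of these libraries. Beside the counts below, 12.6% of all tested genes rose and 9.01% fell. Of 7 skeletal muscle markers, 1 passed (*Acta1*, log2 fold change 2.67). Their summed level ran from 118 to 436 CPM in the controls and from 210 to 3141 CPM in YT-AKO, with YT-AKO 1 highest, and none was at 0. With YT-AKO 1 left out, *Nr1d2* had a log2 fold change of -1.03 (adjusted p = 0.0287) and *Per3* one of -1.11, which did not pass (0.0903). Of 7 thermogenic markers, 6 rose, and their sum ran from 163 to 233 CPM and from 1656 to 3613 CPM, highest in YT-AKO 2. Of 6 B cell markers, 4 fell, and their sum ran from 972 to 1134 CPM and from 600 to 850 CPM. Among the adipocyte markers, 2 of 7 rose (*Fabp4* and *Lipe*). Of 6 T cell markers 1 fell (*Cd4*) and 2 had fold changes above 0, of 6 endothelial markers 1 fell (*Kdr*) and 3 had fold changes above 0, and of 6 fibroblast markers 1 fell (*Dpp4*) and 1 rose (*Pi16*), with 5 above 0. Of the macrophage, epithelial and Schwann cell markers, 0 passed. The TMM factor of YT-AKO 2 was 0.777, against 0.954 to 1.16 in the other libraries. The part of these differences in the clock gene results was not tested.

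The genes most like a clock gene were sought by the root mean square difference of centred log2 CPM over the 6 libraries, among 11867 genes of at least 5 CPM. For *Arntl* they were *Pdia3* (0.063), *Cct8* (0.068) and *Ccdc174* (0.074), for *Dbp* they included *Zfp862-ps* (0.127) and *Meis1* (0.156), and for *Nr1d1* they were *Smad6* (0.097), *Prdm2* (0.141) and *Zeb2* (0.160). None of these is a clock component. *Nr1d1* was the 94th gene in likeness to *Dbp*, at 0.279.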

How the data were processed

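RNA-seq counts of 6 scWAT libraries were used, 3 labelled WT (YT-FF) and 3 labelled YT-AKO. The authors aligned paired reads (HISAT2, mm10) and used featureCounts 2.0.1 with GENCODE vM25 exons. The deposited values are raw, unstranded counts per gene that leave out multi-mapped fragments and those on more than 1 gene. Of 55401 identifiers, 55141 matched a symbol. Totals limit precision, and 3 counts equal 0.137 to 0.169 CPM of a library's total.

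In R 4.3.3, genes were filtered with filterByExpr (at a minimum count of 10 and a total of 15) and tested by quasi-likelihood in edgeR 4.0.16 with TMM factors and Benjamini-Hochberg adjustment over 16807 genes (biological coefficient of variation 0.288). DESeq2 1.42.0, limma 3.58.1, other scalings and filters, a gene length correction, a replicate block and leaving out each library were alternatives. Differences of log2 counts used a prior count of 0.25. On simulated counts of this comparison (16349 genes, 200 changed), edgeR recovered 157 (78.5%) and called 8 unchanged genes, DESeq2 171 and 37, and limma-voom 149 and 9. Every planted change was larger than the fitted change of any clock gene. These rates therefore do not tell how often changes of the clock genes' size would be found.

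The clock genes are named in full, other clock components by value where they passed, and of each further list the 2 members with the largest change that passed. Others were named after their values were seen, and some genes that this rule names are not reported here. Members and lists were chosen with earlier results of these data known.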

Additional observations from a re-analysis of the deposited data

How the results depend on the processing

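The study's thresholds were applied here to the edgeR fit alone. Of the clock genes, 0 rose in every setting tried. The count that fell, 2, was 1 with the length correction, 0 with that and the replicate block or by the study's thresholds, and 0 to 4 when a library was left out. Of the other components, 0 rose by the study's thresholds and 0 to 2 with a library left out. For those that fell, DESeq2, upper-quartile factors and at least 10 counts in every library each gave 1, library totals gave 3, and leaving out a library 0 to 1. Of the outputs, 1 rose with library totals or with length and block, 0 rose by the study's thresholds and 0 to 4 with a library left out, while 0 fell by the study's thresholds or with length and block, and 0 to 1 with a library left out. Over all tested genes, 1137 rose and 2828 fell with library totals (median log2 fold change -0.34), 2392 fell with DESeq2, 763 with the length correction, 59 rose and 22 fell with length and block, 15 and 6 passed the study's thresholds, and leaving out a library gave 0 to 2925 and 0 to 2424.

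Signs turned for *Clock* with the length correction (0.24, also with the block), for *Cry2* with the length correction (0.20, or 0.18 with the block), for *Cry1* with library totals (-0.026), and with a library left out for *Per1* (-0.45 to 0.035), *Per2* (-0.62 to 0.076) and *Cry2* (-0.22 to 0.066). The cause was not tested.

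The replicate numbers did not pair the libraries. Same-numbered libraries had correlations of 0.109, -0.108 and -0.091, and 1 of 3 in each group correlated best with its own number. With the replicate block, 0 clock genes fell (*Nr1d2* adjusted p = 0.0625, *Per3* 0.0814), 0 other components and 0 outputs rose, 0 outputs fell, and 24 of all tested genes rose and 9 fell. At an unadjusted p under 0.05, 3 clock genes were lower with the block, against 34.5% of all tested genes in either direction. Of the 16807 tested genes, 2708 were lower at that cut.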
